A study of Homo sapiens with 6 samples.

Results

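Papillary thyroid carcinoma (PTC) marker genes are genes whose mRNA or protein is known to be raised in PTC compared with normal thyroid. The 10 genes examined were LGALS3, MET, CITED1, HMGA2, DPP4, QPCT, PROS1, CDH3, SDC4 and CHI3L1, taken by their symbols from the 19684 Ensembl genes listed in the deposited tables. The data were mRNA-seq libraries of K1, an established PTC cell line. All cells were transfected, 3 libraries with a negative control siRNA (NC) and 3 with an siRNA against the long isoform of the lncRNA NEAT1 (si-NEAT1_2), and a group table gave 1 value per gene for each group. The comparison asked which mRNAs differ in level after the siRNA against NEAT1_2. NEAT1 was not analysed here, so that groups were taken from the labels with no measure of the knockdown. Values of single libraries are given in the order of replicates 1, 2 and 3. Nothing in the labels says that the replicates were separate cultures, so p-values measure only the spread between these samples, which may be technical. In bulk samples, fewer cells that express a gene and less RNA per cell cannot be told apart.

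PTC is driven mostly by mutations that activate the MAP kinase pathway, and the genes raised in it include growth factor receptors, adhesion molecules, secreted proteins and chromatin factors. MET is the receptor for hepatocyte growth factor, galectin-3 (LGALS3) is a lectin that binds glycans at the cell surface and is used as an immunostain for thyroid cancer, and HMGA2 is an architectural chromatin protein that is expressed in embryos and silenced by the let-7 family of miRNAs in most adult tissues. Thyroid follicular cells are recognised by TG and TSHR and by the transcription factors PAX8, NKX2-1, FOXE1 and HHEX, and PTC cell lines often lose part of this programme.

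The total expected count per library ranged from 22798631 to 27066025, so that 3 counts, taken as the floor of detection for counting error alone, stood for 0.111 to 0.132 CPM (counts scaled to a common library size). The first principal component of log2 CPM held 55.1% of the variance, and NC replicate 2 and si-NEAT1_2 replicate 2 lay at its ends. Of the 16 thyroid genes listed, 4 had at least 1 FPKM (fragments per kilobase of transcript, scaled for library size) in every library, namely TG, PAX8, FOXE1 and HHEX. PAX8 had 113 to 169 FPKM, whereas TSHR had at most 0.08 and NKX2-1 at most 0.05. The summed FPKM of the thyroid list was 143 to 149.7 in the NC libraries and 127 to 185 in the si-NEAT1_2 libraries. Epithelial markers summed to 2273 to 2529 and 2359 to 3082 FPKM. Of the 7 listed, 4 had at least 1 FPKM in every library, namely KRT8, KRT18, KRT7 and EPCAM. CLDN7, CDH1 and KRT19 did not, with CDH1 at most at 0.38 and KRT19 at most at 0.70 FPKM. The endothelial list summed to at most 0.31 FPKM. The leukocyte list summed to 12 to 13.5 FPKM in NC and 15 to 20.0 in si-NEAT1_2, of which nearly all was CD68, a lysosomal protein, while PTPRC had at most 0.11 FPKM. The fibroblast list summed to 25.2 to 29.8 FPKM in NC and 19.6 to 22.6 in si-NEAT1_2, most of it LUM. The leukocyte and fibroblast sums did not overlap between the groups, and their part in the differences below was not tested.

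HMGA2 is a textbook target of let-7, so the seed of this miRNA was searched in the 3′ UTRs of the 10 genes. The mature sequence is from RefSeq, and the capitals mark the seed, bases 2 to 8.
hsa-let-7a-5p: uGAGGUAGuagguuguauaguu
The heptamer complementary to the seed is CTACCTC. HMGA2 was the single gene of the 10 that held it, with 4 sites in a 3′ UTR of 3003 bases in exon 5 of its principal transcript in GENCODE release 29 (GRCh38, plus strand). Of these, 3 are shown with the heptamer in capitals, because they set HMGA2 apart by sequence.
HMGA2 let-7 site 1, chr12:65963313-65963319: acgttcgatttCTACCTCagcagcagttg
HMGA2 let-7 site 3, chr12:65964960-65964966: cttgcaaagacCTACCTCcagacttcaaa
HMGA2 let-7 site 4, chr12:65965813-65965819: aaaacacactaCTACCTCttaagtcccag
Among 12476 tested genes with an annotated 3′ UTR, 10.6% held a CTACCTC. The UTR of LGALS3 has 132 bases and that of MET 2262, and neither held the heptamer. Such a match describes letters of the transcript and does not measure binding.

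In K1 cells, 7 of the 10 marker genes were clearly expressed and 3 were at or near the floor. SDC4, the cell surface heparan sulfate proteoglycan syndecan-4, had the highest level of the 10, followed by MET, HMGA2, DPP4, LGALS3, QPCT and PROS1. In the NC libraries the means were 93.1 ± 7.18 FPKM (SD, n = 3) for SDC4, 58.3 ± 9.93 for MET, 35.3 ± 2.22 for HMGA2, 24.2 ± 1.96 for DPP4, 12.2 ± 1.11 for LGALS3, 9.83 ± 0.207 for QPCT and 3.03 ± 0.365 for PROS1, and no neighbours in this order overlapped. CHI3L1, CDH3 and CITED1 had means of 0.0867, 0.06 and 0.0333 FPKM, and their ranges overlapped. The order of the first 7 was the same in the si-NEAT1_2 libraries, where MET overlapped with HMGA2, and DPP4 with LGALS3. In those libraries CITED1 stood above CDH3 and CHI3L1.

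**Figure D1:**
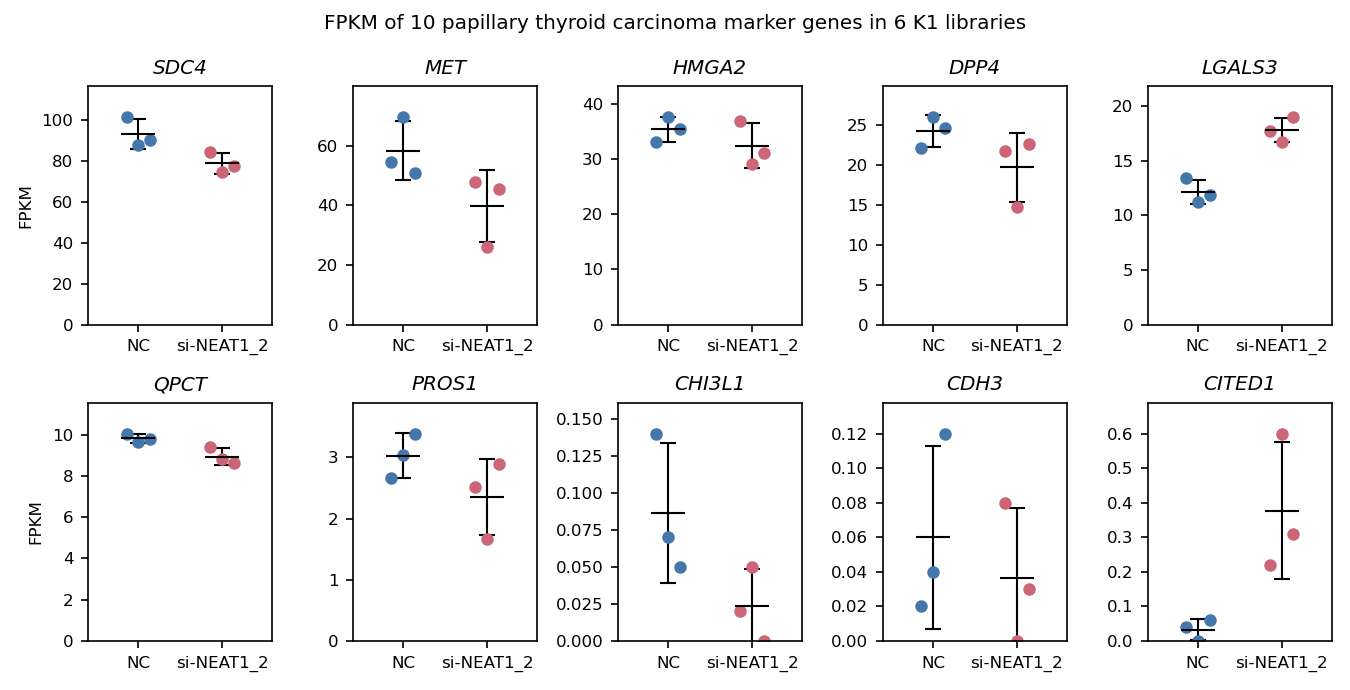
FPKM (y axis, linear, from 0) of the 10 marker genes in the 3 NC (blue) and 3 si-NEAT1_2 (red) libraries, replicates 1 to 3 from left to right, with the mean and SD as horizontal bars and whiskers. LGALS3 and CITED1 are higher in every si-NEAT1_2 library than in any NC library, MET, SDC4 and QPCT are lower on this scale, and the other 5 genes overlap.

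Promoters were compared across the genes by level, as 300 bases from 250 before to 50 after each RefSeq start (GRCh38.p14). The 10 windows of 8 genes were used; HMGA2 and CDH3 were not analysed here. LGALS3, MET and SDC4 are shown because their libraries separated by group, and CHI3L1 because it was near the floor. Capitals mark the GC box (GGGCGG on either strand) in the first 3 and the TATA box (TATAAA) in CHI3L1.
LGALS3, chr14:55129002-55129301, plus strand: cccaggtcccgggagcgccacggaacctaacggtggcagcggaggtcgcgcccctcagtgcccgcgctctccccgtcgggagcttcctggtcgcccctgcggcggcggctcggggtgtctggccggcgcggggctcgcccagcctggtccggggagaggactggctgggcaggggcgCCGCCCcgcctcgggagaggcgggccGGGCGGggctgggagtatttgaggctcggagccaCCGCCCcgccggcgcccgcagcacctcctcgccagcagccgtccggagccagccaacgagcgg
MET, chr7:116671946-116672245, plus strand: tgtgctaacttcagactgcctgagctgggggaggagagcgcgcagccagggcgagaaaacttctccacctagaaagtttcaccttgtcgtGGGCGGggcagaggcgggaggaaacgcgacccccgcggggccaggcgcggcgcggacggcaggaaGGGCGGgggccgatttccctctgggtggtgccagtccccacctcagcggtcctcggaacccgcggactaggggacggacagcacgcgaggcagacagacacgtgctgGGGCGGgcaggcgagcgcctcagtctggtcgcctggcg
SDC4, chr20:45348375-45348674, minus strand: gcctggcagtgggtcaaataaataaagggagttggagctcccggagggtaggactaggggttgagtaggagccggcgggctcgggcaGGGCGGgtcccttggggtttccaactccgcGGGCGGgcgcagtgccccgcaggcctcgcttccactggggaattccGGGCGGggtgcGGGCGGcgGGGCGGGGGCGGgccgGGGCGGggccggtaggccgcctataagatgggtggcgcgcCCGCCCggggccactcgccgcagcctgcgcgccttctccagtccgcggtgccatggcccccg
CHI3L1, chr1:203186655-203186954, minus strand: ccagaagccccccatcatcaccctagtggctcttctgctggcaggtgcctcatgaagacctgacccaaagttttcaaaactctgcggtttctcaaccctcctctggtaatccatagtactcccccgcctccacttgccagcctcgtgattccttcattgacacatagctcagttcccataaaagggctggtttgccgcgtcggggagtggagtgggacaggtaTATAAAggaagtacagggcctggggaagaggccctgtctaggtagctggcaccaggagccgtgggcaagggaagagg
Searched on both strands, SDC4 held 8 GC boxes, LGALS3 and MET 3 each, DPP4 and PROS1 2 each and QPCT 1, so that all 6 expressed genes with a window held at least 1. CHI3L1 held 0 and CITED1 held 1 in 1 of its 3 windows. The TATA box was found in CHI3L1 and in all 3 CITED1 windows, and in 0 of the windows of the expressed genes. Of 35116 promoters in the table, 45.0% held a GC box and 11.5% a TATA box. The AP-1 motif TGANTCA and the NF-kB motif, a decamer, were in 0 of the 10 windows, against 7.71% and 0.558% of all promoters. These are descriptions of the letters in these windows.

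After filtering of genes with too few counts, 13109 genes were compared between the groups, including 7 of the 10 marker genes. Some of the 13109 were loci without Ensembl identifier. A gene was called past the study's thresholds, an adjusted p under 0.05 (edgeR's quasi-likelihood test, Benjamini-Hochberg over all genes tested) together with a change of 2-fold or more. By this rule 0 marker genes were called higher and 0 lower, and 0% of all genes tested were called higher and 0% lower. DESeq2, edgeR's exact test and limma also called 0 of the 7. Of the 13109 genes, DESeq2 called 25 higher and 48 lower, and edgeR's exact test called 40 higher and 39 lower. Limma called 0 higher and at most 1 lower. The paper, which names no test for its sequencing data, reported upregulated and downregulated mRNAs at a fold change of at least 2. At an unadjusted p under 0.05, LGALS3 was higher, against 11.2% of all genes tested, and MET was lower, against 12.9%. With the trends of fold change with GC content and transcript length removed, which are described further on, 0 marker genes were higher at this p, against 7.69% of all genes tested, and 1 (SDC4) was lower, against 8.18%. The groups did not overlap in CPM for LGALS3, which was higher, against 15.4% of all genes tested, and for MET and SDC4, which were lower, against 14.1%. The median log2 fold change (si-NEAT1_2 minus NC) of the 7 genes was -0.18, and that of all genes tested was 0.0090. Of the 7, 1 had a value above 0 and 6 below 0. The labels carry a library code. NC replicates 2 and 3 and si-NEAT1_2 replicate 2 have code L2. NC replicate 1 and si-NEAT1_2 replicate 3 have L3, and si-NEAT1_2 replicate 1 alone has L4. Code L2 holds both libraries at the ends of the first principal component. Within it, with no test, the values were 0.67 for LGALS3, -0.90 for MET and -0.10 for SDC4. With the code as a covariate over all 6 libraries they were 0.61, -0.61 and -0.21.

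**Figure D2:**
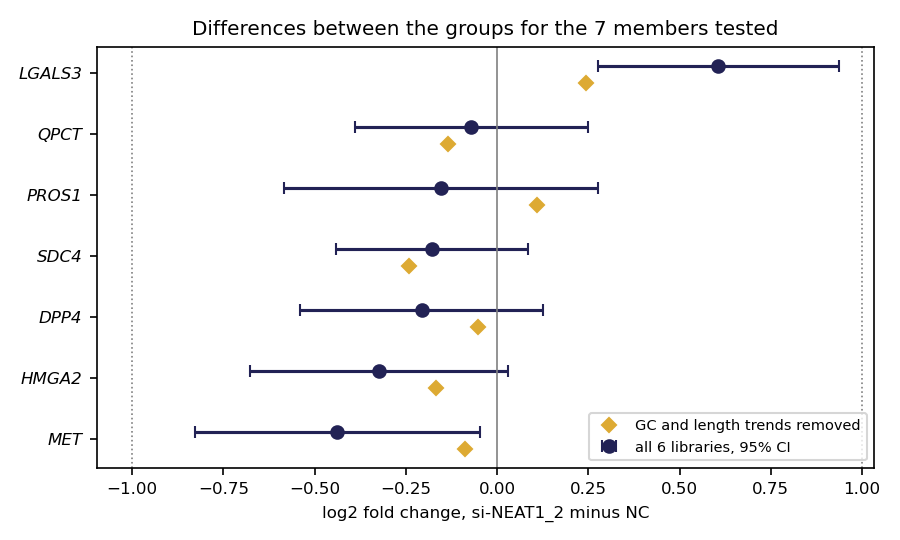
Log2 fold change (x axis, si-NEAT1_2 minus NC) of the 7 marker genes tested, as circles with 95% confidence intervals from edgeR's quasi-likelihood fit and as diamonds after trends with GC content and transcript length were removed. Dotted lines mark a fold change of 2, which 0 of the genes reach; the intervals of LGALS3 and MET do not include 0 and their diamonds lie nearer to 0.

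LGALS3, at chr14:55124110-55145413 (GRCh38, plus strand), encodes galectin-3. Its FPKM was 13.4, 11.2 and 11.9 in the NC libraries and 17.8, 16.8 and 19.0 in the si-NEAT1_2 libraries. Every si-NEAT1_2 library was above every NC library. In CPM the means were 13.7 ± 1.38 (SD, n = 3) and 20.8 ± 0.999 (SD, n = 3), 52.3% higher in the si-NEAT1_2 libraries (two-sided exact permutation test, p = 0.10, the smallest that 3 libraries against 3 allow). This was a log2 fold change of 0.61 with a standard error of 0.150 (edgeR, adjusted p = 0.17). Over the alternatives the adjusted p ran from 0.0305 with DESeq2 to 0.557, and edgeR's exact test gave 0.0409, while all fold changes were below 2. The expected counts behind these values were 294 to 548 per library. Removing the trends with GC content and transcript length left a difference of 0.24 on the log2 scale (standard error 0.138).

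Among the genes listed beside galectin-3, LGALS1, another galectin, had 1395 to 2121 FPKM and overlapped between the groups. LGALS3BP, a secreted glycoprotein that binds galectin-3, had a mean of 136.8 FPKM in NC and 168.7 in si-NEAT1_2 and did not overlap between the groups in CPM (log2 fold change 0.41, edgeR, adjusted p = 0.17). MGAT5, which builds the branched N-glycans that galectin-3 binds, was lower in every si-NEAT1_2 library in CPM, with a log2 fold change of -0.26 (edgeR, adjusted p = 0.307). After the GC content and length trends were removed, LGALS3BP was at 0.12 and MGAT5 at -0.09.

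MET, at chr7:116672390-116798386 (plus strand), is a receptor tyrosine kinase. Its FPKM was 54.6, 69.6 and 50.8 in the NC libraries and 47.8, 25.9 and 45.6 in the si-NEAT1_2 libraries. The groups did not overlap, NC replicate 2 was the highest library and si-NEAT1_2 replicate 2 the lowest. In CPM the means were 320.4 ± 42.4 (SD, n = 3) and 236.5 ± 54.3 (SD, n = 3), 73.8% of the NC level (two-sided exact permutation test, p = 0.10). On the log2 scale the difference was -0.44 with a standard error of 0.177 (edgeR, adjusted p = 0.182, from 0.0754 to 0.696 over the alternatives). Leaving out si-NEAT1_2 replicate 2 gave -0.27 and leaving out NC replicate 2 gave -0.33, and the value was -0.09 after the trends with GC content and transcript length were removed.

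HGF, the ligand of MET, had at most 0.06 FPKM in any library. GRB2, an adaptor of MET signalling, had a mean of 34.6 FPKM in NC and 39.1 in si-NEAT1_2 (log2 fold change 0.19, edgeR, adjusted p = 0.321). GAB1, the docking protein of MET, had 0.97 to 1.95 FPKM and MST1R, the related receptor RON, 0.43 to 1.39, and both overlapped between the groups.

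SDC4, at chr20:45325288-45348424 (minus strand), had 101 FPKM in NC replicate 1, 87.8 in NC replicate 2 and 90.2 in NC replicate 3, against 84.4, 74.5 and 77.5 in the si-NEAT1_2 libraries. The groups did not overlap, by a gap between 87.8 and 84.4 FPKM. In CPM the si-NEAT1_2 mean was 88.3% of the NC mean (210 ± 6.37 against 238 ± 20.6, SD, n = 3 each, two-sided exact permutation test, p = 0.10). The fitted log2 fold change was -0.18 with a standard error of 0.119 (edgeR, adjusted p = 0.351, from 0.193 to 0.635 over the alternatives). After removal of the GC content and length trends it was -0.24, with a standard error of 0.0753 (edgeR, adjusted p = 0.219). The other syndecans SDC1 (78.8 to 95.1 FPKM), SDC2 (11.1 to 17.6) and SDC3 (11.8 to 20.1) overlapped between the groups. SDCBP, the adaptor syntenin that binds syndecan tails, was lower in CPM in every si-NEAT1_2 library (log2 fold change -0.22, edgeR, adjusted p = 0.26) and had a value of 0.09 after the trends were removed.

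CDH3, at chr16:68636189-68722616 (plus strand), encodes P-cadherin and was near the floor. Its expected counts were 2, 3 and 11 in the NC libraries and 10, 0 and 3 in the si-NEAT1_2 libraries. The groups overlapped, and the summed counts of 16 and 13 gave a ratio of si-NEAT1_2 over NC of 0.813 (exact 95% interval 0.36 to 1.80, counting error only). E-cadherin (CDH1) was also low, at 0.08 to 0.38 FPKM, whereas N-cadherin (CDH2) had 32.5 to 53.4 FPKM. The catenins CTNNA1, CTNNB1 and CTNND1, which link cadherins to actin, had means of 190 FPKM, 130.6 FPKM and 39.9 FPKM in NC. CDH2, CTNNA1 and CTNND1 were lower in every si-NEAT1_2 library in CPM, with log2 fold changes of -0.26, -0.12 and -0.23 (edgeR, lowest adjusted p = 0.239), and these were -0.10, -0.07 and -0.03 after the GC content and length trends were removed. JUP, plakoglobin, was higher in every si-NEAT1_2 library in CPM (log2 fold change 0.41, edgeR, adjusted p = 0.17), with a value of 0.19 after the trends were removed. Of these 3 cadherins, N-cadherin alone was at a high level in all 6 libraries.

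DPP4, at chr2:161992241-162074542 (minus strand), is the cell surface dipeptidase CD26. Its FPKM was 22.1, 26.0 and 24.6 in the NC libraries and 21.8, 14.7 and 22.6 in the si-NEAT1_2 libraries. The groups overlapped, since si-NEAT1_2 replicate 3 was above NC replicate 1, and si-NEAT1_2 replicate 2 was the lowest library. The log2 fold change was -0.21 with a standard error of 0.152 (edgeR, adjusted p = 0.395), and it was -0.08 without si-NEAT1_2 replicate 2 and -0.05 after the GC content and length trends were removed. FAP, the closest relative of DPP4 at the cell surface, had at most 0.03 FPKM. DPP7 (41.4 to 73.7 FPKM) was higher in every si-NEAT1_2 library in CPM (log2 fold change 0.63, edgeR, adjusted p = 0.17), DPP8 was at -0.65 on the log2 scale (edgeR, adjusted p = 0.192) and DPP9 at -0.06 (adjusted p = 0.797). After the GC content and length trends were removed the values were 0.20, -0.15 and -0.22. These dipeptidases thus had values on both sides of 0.

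QPCT, at chr2:37342827-37373322 (plus strand), encodes glutaminyl cyclase, which forms pyroglutamate at the N terminus of secreted peptides. It had 10.1, 9.64 and 9.79 FPKM in the NC libraries and 9.39, 8.80 and 8.62 in the si-NEAT1_2 libraries. The groups did not overlap in FPKM but did in CPM, where the si-NEAT1_2 mean was 95.2% of the NC mean. The log2 fold change was -0.07 with a 95% interval of -0.39 to 0.25 (edgeR, adjusted p = 0.78). QPCTL, its homolog in the Golgi, was higher in every si-NEAT1_2 library in CPM (log2 fold change 0.56, edgeR, adjusted p = 0.17), with a value of 0.28 after the GC content and length trends were removed.

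PROS1, at chr3:93873033-93980003 (minus strand), encodes protein S, a vitamin K-dependent plasma protein and a ligand of TAM receptors. Its counts are uncertain because a near-identical pseudogene can share reads with it. It had 2.66, 3.04 and 3.39 FPKM in the NC libraries and 2.51, 1.67 and 2.89 in the si-NEAT1_2 libraries. The groups overlapped and si-NEAT1_2 replicate 2 was again the lowest library. The log2 fold change was -0.15 (95% interval -0.58 to 0.28, edgeR, adjusted p = 0.632) and was 0.11 after the GC content and length trends were removed. Leaving out si-NEAT1_2 replicate 2 gave -0.02, and leaving out si-NEAT1_2 replicate 3 gave -0.29. Of the TAM receptors, AXL had 117.5 to 160.2 FPKM, TYRO3 4.98 to 6.69 and MERTK 0.49 to 1.32. GAS6, the other ligand of these receptors, had 15.1 to 21.7 FPKM, above PROS1 in every library. All 4 of these genes overlapped between the groups. After the GC content and length trends were removed, GAS6 went from -0.04 to -0.36 on the log2 scale (edgeR, adjusted p = 0.193). AXL was then at -0.14, TYRO3 at 0.06 and MERTK at 0.24.

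HMGA2, at chr12:65824131-65966295 (plus strand), had 33.1, 37.6 and 35.3 FPKM in the NC libraries and 36.9, 29.1 and 31.0 in the si-NEAT1_2 libraries. The groups overlapped, with si-NEAT1_2 replicate 1 above NC replicates 1 and 3. The log2 fold change was -0.32 with a standard error of 0.161 (edgeR, adjusted p = 0.232), and it was -0.17 after the GC content and length trends were removed with its principal transcript of 4473 bases. Leaving out NC replicate 2 gave -0.18, and leaving out si-NEAT1_2 replicate 1 gave -0.45. With its longest coding transcript of 8094 bases, an alternative added after the data were seen, the value was reversed, at 0.19 (edgeR, adjusted p = 0.288, the alternatives spanning 0.102 to 0.652). The length that the authors' FPKM implies for HMGA2, the CPM by library total divided by FPKM, ran from 2.35 kb in si-NEAT1_2 replicate 2 to 3.65 kb in NC replicate 2. This ratio of 1.55 between libraries exceeded the median of 1.09 over all tested genes, and 10.5% of genes had a larger one.

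HMGA1, the other member of the HMGA family, whose counts are uncertain because processed pseudogenes resemble it, had 282.6 to 507.7 FPKM, above HMGA2 in every library. It was higher in every si-NEAT1_2 library in CPM (log2 fold change 0.53, edgeR, adjusted p = 0.17), and its value was 0.21 after the trends were removed. The let-7 blockers LIN28A and LIN28B had at most 0.03 and 0.01 FPKM. Of the IGF2BP proteins, RNA-binding proteins that are raised with HMGA2 in embryos and tumours, IGF2BP1 had at most 0.02 FPKM, IGF2BP2 27.6 to 56.1 and IGF2BP3 10.6 to 38.3. IGF2BP3 was lower in every si-NEAT1_2 library in CPM, with a log2 fold change of -0.81 (edgeR, adjusted p = 0.17) and -0.51 after the trends were removed.

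CITED1, at chrX:72301638-72307187 (minus strand), encodes a transcriptional coregulator that binds CREBBP and EP300 and is an immunostain for PTC. Its expected counts were 1.18, 0 and 1 in the NC libraries and 3, 11 and 9.57 in the si-NEAT1_2 libraries. Every si-NEAT1_2 library was above every NC library, and every NC library was under the floor of 3 counts. The summed counts, after rounding per library, were 2 and 24, a ratio of si-NEAT1_2 over NC of 12 with an exact 95% interval of 2.98 to 105 (counting error only). The gene was removed by the filter on low counts; without a filter its adjusted p was 0.129 (edgeR). Its highest level was 0.6 FPKM. CITED2 had 91.5 to 114.9 FPKM and CITED4 7.43 to 13.9, and CITED4 was higher in every si-NEAT1_2 library in CPM (log2 fold change 0.53, edgeR, adjusted p = 0.172) with a value of 0.05 after the trends were removed. CREBBP was lower in every si-NEAT1_2 library in CPM (log2 fold change -0.40, edgeR, adjusted p = 0.209) and EP300 overlapped (-0.34). With the trends removed CREBBP was at -0.34 (edgeR, adjusted p = 0.18) and EP300 at -0.25.

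CHI3L1, at chr1:203178931-203186749 (minus strand), encodes the secreted chitin-binding glycoprotein YKL-40. It had 6, 3 and 2 expected counts in the NC libraries and 1, 2 and 0 in the si-NEAT1_2 libraries. The groups overlapped at 2 counts. The sums of 11 and 3 gave a ratio of 0.273 (exact 95% interval 0.0489 to 1.03, counting error only), so a difference was not detectable at this depth. IL13RA2, a receptor for this protein, had 0.38 to 0.90 FPKM. The related CHI3L2 had 0.41 to 1.51 FPKM, and CHID1, a further protein of the chitinase-like family, 42.5 to 55.5.

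Over the 41 genes listed beside the members, 35 were tested and 0 were called higher or lower. Their log2 fold changes were above 0 for 13 and below 0 for 22, with a median of -0.06. At an unadjusted p under 0.05 (edgeR), 7 were higher (CITED4, HMGA1, DPP7, QPCTL, JUP, LGALS3BP and CHID1) and 2 lower (IGF2BP3 and DPP8), that is 20.0% and 5.71%, against 11.2% and 12.9% of all genes tested. The balance turned once the GC content and length trends were removed, with 2 higher (HMGA1 and DPP7) and 6 lower (CREBBP, GAS6, IGF2BP2, IGF2BP3, DPP9 and LGALS1), that is 5.71% and 17.1%, against 7.69% and 8.18% of all genes. In CPM, 8 of the 35 genes were higher and 8 lower without overlap of the groups, against 15.4% and 14.1% of all genes tested. IGF2BP3 and DPP8 passed both thresholds without si-NEAT1_2 replicate 1, each with an adjusted p of 0.0493 (edgeR). In that fit 32 of 13284 genes were called higher and 184 lower, against 0 and 0 with all 6 libraries. Over the alternatives the adjusted p ran from 0.039 to 0.557 for IGF2BP3 and from 0.0493 to 0.651 for DPP8.

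Of 25 further genes known as raised in PTC, 20 were tested, 13 with a value above 0 and 7 below, and 0 were called by edgeR's quasi-likelihood test. At an unadjusted p under 0.05, 4 were higher (TIMP1, SERPINA1, PLAU and S100A11) and 1 was lower (ANXA1), that is 20.0% and 5.0%, against 11.2% and 12.9% of all genes tested. With the GC content and length trends removed, 2 were higher (SERPINA1 and TUSC3) and 2 lower (ANXA1 and KCNN4), that is 10% in each direction, against 7.69% and 8.18% of all genes. The highest were SERPINA1, KRT19 and TIMP1 and the lowest MUC1, ANXA1 and RUNX1. SERPINA1, the protease inhibitor alpha-1-antitrypsin, had 50.6, 43.7 and 54.6 FPKM in the NC libraries and 86.3, 98.1 and 103 in the si-NEAT1_2 libraries. Every si-NEAT1_2 library lay above every NC library. Its log2 fold change was 1.01 with a standard error of 0.140 (edgeR, adjusted p = 0.0685), past a fold change of 2 but not the adjusted threshold. It was 0.90 after the GC content and length trends were removed (adjusted p = 0.00707, from 3.37e-07 to 0.401 over the alternatives), under a fold change of 2. DESeq2, edgeR's exact test, the fit without a filter and the fit without si-NEAT1_2 replicate 1 called SERPINA1 higher. TIMP1, an inhibitor of metalloproteinases, was at 0.61 on the log2 scale (edgeR, adjusted p = 0.17) and ANXA1, annexin A1, at -0.40 (adjusted p = 0.17), and both did not overlap between the groups in CPM. With the trends removed TIMP1 was at 0.17 and ANXA1 at -0.21. Keratin KRT19 had 0.18 to 0.70 FPKM and a difference of 0.64 (adjusted p = 0.487), the mucin MUC1 of -0.41 (adjusted p = 0.545) and the transcription factor RUNX1 of -0.36 (adjusted p = 0.218). These became 0.16, -0.62 and -0.15 with the trends removed.

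Of the 16 thyroid genes, 6 were tested, and 0 were called or had an unadjusted p under 0.05 (edgeR). Among them the log2 fold changes were 0.42 for HHEX, 0.09 for TG, 0.08 for FOXE1, 0.07 for PAX8 and -0.64 for IYD, with a lowest adjusted p of 0.238 (edgeR). PAX8, FOXE1 and TG overlapped between the groups, and HHEX was higher in every si-NEAT1_2 library in CPM.

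Fold changes followed transcript length and GC content across all genes tested. The median log2 fold change was 0.34 in the decile of shortest transcripts, whose median length was 1065 bases, and -0.35 in the decile of longest transcripts, with a median of 9615 bases. It was -0.45 in the decile of lowest GC content and 0.31 in the decile of highest. LGALS3, the marker gene with the highest value, has the shortest principal transcript of the 7 (1146 bases) and the highest GC content (56.0%), and MET, with the lowest value, has the longest (6635 bases) with a GC content of 42.4%. The lowest GC content of the 7 is that of PROS1 (40.5%), whose value was -0.15. Once these trends were removed in each library, the values of the 7 genes were 0.24 for LGALS3, 0.11 for PROS1, -0.05 for DPP4, -0.09 for MET, -0.14 for QPCT, -0.17 for HMGA2 and -0.24 for SDC4, with a median of -0.09. None passed the adjusted threshold. SDC4 (2613 bases, 48.8% GC) was the one of the 3 non-overlapping genes whose value did not move towards 0. How these trends arose was not tested.

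**Figure D3:**
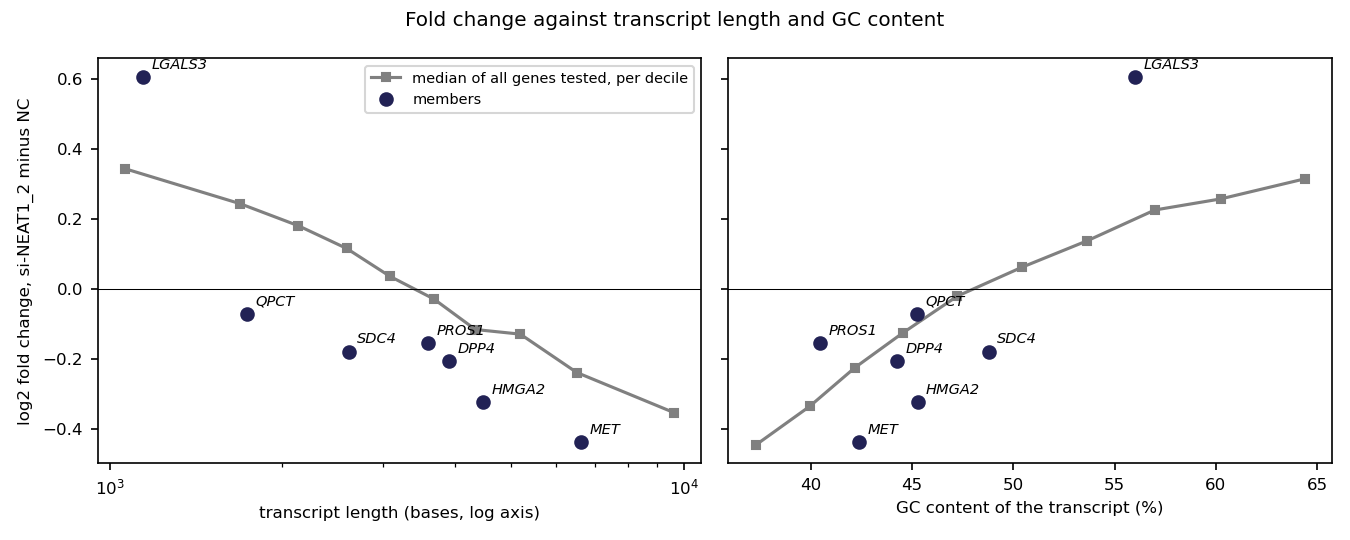
Log2 fold change (y axis, si-NEAT1_2 minus NC) of the 7 marker genes tested (circles) against principal transcript length in bases (left, log axis) and GC content in percent (right), with the median of all tested genes in each decile of the x axis (grey squares). The decile medians run from 0.34 to -0.35 with length and from -0.45 to 0.31 with GC content. Among the 7, LGALS3 is the shortest and most GC-rich, MET is the longest and PROS1 has the lowest GC content.

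Across the 6 libraries, log2 CPM of MET moved with that of DPP4 (Pearson r = 0.954) and HMGA2 (r = 0.944), and against that of LGALS3 (r = -0.716). SDC4 moved with QPCT (r = 0.877) and less with MET (r = 0.421). These correlations rest on 6 libraries that share the group difference, depth and the trends above. Over 9569 genes at an average log2 CPM of 3 or more, the genes whose pattern was most like that of LGALS3 were COLGALT1 (r = 0.995), ELF3 (r = 0.994) and PPT2 (r = 0.994). Those most like MET were MRTFB (r = 0.9997), SHROOM3 (r = 0.999) and ANKRD13A (r = 0.998).

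The authors' group table, which has no replicates, gave other levels for most marker genes. Its expected counts differed as well as its FPKM. DPP4 had 124.7 expected counts in the NC column and 2244 to 2334 in the NC libraries. For NC it had 61.9 FPKM for SDC4, 23.4 for QPCT, 18.1 for MET, 13.5 for HMGA2, 12 for LGALS3, 1.77 for DPP4, 0.897 for PROS1, 0.167 for CITED1, 0.10 for CDH3 and 0 for CHI3L1. For si-NEAT1_2 it had 30.4, 12.6, 16.02, 24.7, 16.2, 2.54, 0.443, 0.61, 0.247 and 0.02 FPKM in the same order. QPCT thus ranked second in the NC column, and DPP4 was below LGALS3. Ratios were read where the higher of the compared values was at least 0.1 FPKM, which left 9 of the 10 genes.

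Between its columns, the group table had CITED1 (3.66-fold) and CDH3 (2.47-fold) at least 2-fold higher in si-NEAT1_2, against 5.18% of all genes with such a value. PROS1 and SDC4 were at least 2-fold lower, against 18.3%, with si-NEAT1_2 at 0.494 and 0.490 of NC. LGALS3 was 1.35 times and MET 0.887 times the NC value, HMGA2 1.82, DPP4 1.43 and QPCT 0.54 times. The direction was that of the libraries for LGALS3, MET, CITED1, SDC4, QPCT and PROS1, and the opposite one for HMGA2, DPP4 and CDH3. In the libraries, the 95% intervals of the log2 fold change included 0 for HMGA2, DPP4, SDC4, QPCT and PROS1. The ratio of summed counts of CDH3 had an interval of 0.36 to 1.80 (counting error only). No direction was thus established in the libraries for these genes.

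Against the mean FPKM of the NC libraries, the group table's NC value was at least 2-fold above for CITED1 and QPCT, against 18.3% of genes, and at least 2-fold below for MET, HMGA2, DPP4 and PROS1, against 22.4%. For si-NEAT1_2 it was at least 2-fold above for CDH3, against 14.6%, and at least 2-fold below for MET, DPP4, PROS1 and SDC4, against 28% of genes. DPP4 had the widest gap among the expressed marker genes, with a library mean 13.7 times the group value in NC and 7.74 times in si-NEAT1_2. LGALS3 had the narrowest, with a library mean 1.02 times the group value in NC and 1.11 times in si-NEAT1_2. Other markers differed as widely, since KRT19 had 29.8 FPKM in the NC column and at most 0.70 in any library, and KRT7 had 1.66 FPKM there and at least 684 in every library. A ratio in the group table is therefore not the ratio of the means of these 6 libraries. From which libraries the table was made was not tested.

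**Figure D4:**
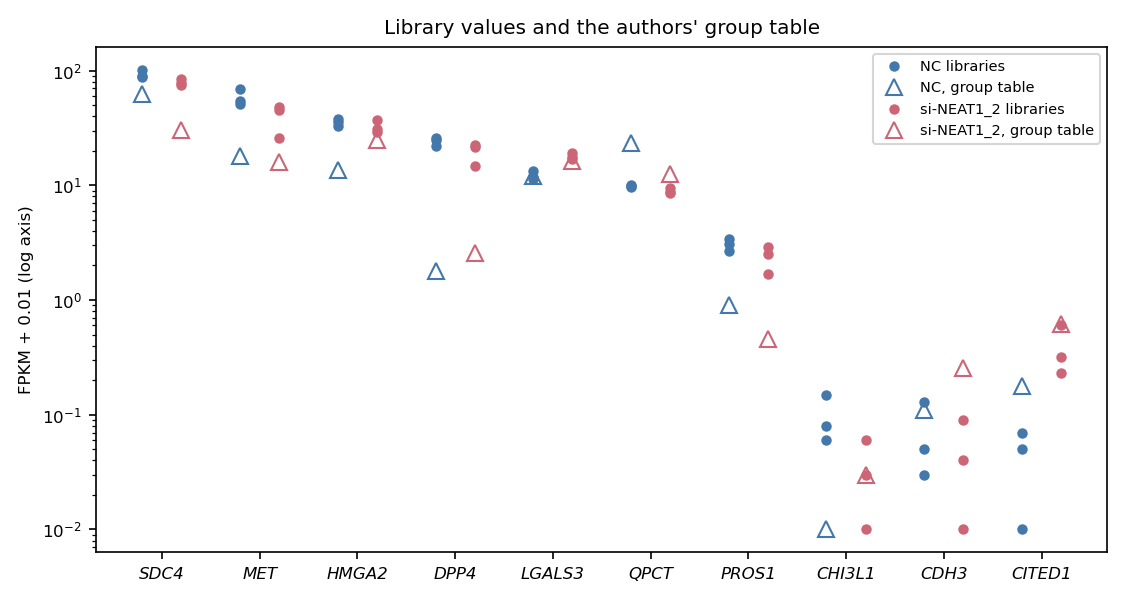
FPKM + 0.01 (y axis, log scale) of the 10 marker genes in the 3 NC (blue dots) and 3 si-NEAT1_2 (red dots) libraries and in the authors' group table (open triangles of the same colours). The triangles of LGALS3 lie near its dots, those of MET, DPP4 and PROS1 below them and those of QPCT above them.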

How the data were processed

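RNA of K1 cells transfected with NC or si-NEAT1_2 was sequenced after enrichment of mRNA with oligo(dT) beads and removal of rRNA. Per the paper, the authors mapped reads with TopHat2 and quantified them with RSEM, while the submitters' processing notes list fastp 0.18.0, Bowtie2 2.2.8, HISAT2, StringTie 1.3.1 and GRCh38. The deposited expected counts per gene and library are not normalized. The deposited FPKM values are scaled by the authors for length and library size. A further deposited table gives expected counts and FPKM by group (the group table), in which 87.4% of NC counts were within 0.01 of a multiple of 1/3.

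The members and the gene lists were chosen with earlier results of these data known. Expected counts of 19684 Ensembl genes and of 838 loci without Ensembl identifier (0.336% to 0.447% of counts) were rounded. The 13109 genes and loci left by filterByExpr were scaled by TMM and tested with edgeR 4.0.16 (glmQLFTest) in R 4.3.3. Benjamini-Hochberg adjustment was over all of these, and shares of all genes tested include the loci. Trends with GC content and transcript length were taken from, and removed for, the 12581 with an Ensembl annotation. Exact permutation tests of single values were two-sided. DESeq2 1.42.0, edgeR's exact test and limma 3.58.1 on log2(FPKM + 1) or log2(FPKM + 0.1) were alternatives, as were filters, a replicate block, library codes, splines in GC content and transcript length (5 degrees of freedom per library) and omission of each library. CPM values are TMM-normalized. Transcripts, coordinates and UTRs are from GENCODE release 29, promoters and the miRNA from RefSeq. The scripts were checked on simulated data. Named were all members, genes listed beside a member, the 3 highest and 3 lowest log2 fold changes of the lists of further PTC genes and of thyroid genes, and the 3 genes most like each of the 2 members with the largest changes. PLAU, S100A11, TUSC3, KCNN4 and cell type markers named singly were chosen after their values were seen. Some genes and sequences are not reported here.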

Additional observations from a re-analysis of the deposited data

How the results depend on the processing

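Over 19 alternative settings with a value for each of the 7 tested marker genes, 128 of 133 log2 fold changes kept their direction. In the 18 settings that had a test, 0 marker genes passed both thresholds. The reversed values were 0.0191 for QPCT within the libraries of code L2 (NC replicates 2 and 3 and si-NEAT1_2 replicate 2, a value with no test), 0.109 for PROS1 with GC content and length trends removed, 0.103 with the longest coding transcript and 0.0986 with the replicate block added, and 0.189 for HMGA2 with the longest coding transcript; the last 2 kinds of setting were chosen after seeing the data. The median of the marker genes was -0.49 within code L2 and ran from -0.29 to -0.11 when 1 library was left out. With an unadjusted p under 0.05 and no fold threshold, 2 marker genes passed. Leaving out 1 library gave 0 to 2 genes called beside the members (2 without si-NEAT1_2 replicate 1), 0 to 1 further PTC gene, and 0 marker or thyroid genes. Without si-NEAT1_2 replicate 1, 32 of 13284 genes were called higher and 184 lower. SERPINA1 was the 1 further PTC gene called without a filter, by the exact test of edgeR and by DESeq2. With a floor of 1 FPKM in the group table, 1 marker gene (SDC4) was past 2-fold in place of 4. CITED1, CDH3 and PROS1 fell under that floor, with at most 0.61, 0.247 and 0.897 FPKM in either column. Same-numbered libraries deviated from their group means with correlations of -0.282, -0.365 and -0.00797, which gives no pairing by number. The replicate block left 0 marker genes called. CITED1, CDH3 and CHI3L1 lie near the floor of 3 counts, so the filter leaves them without a fitted value.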
